A study of Homo sapiens with 24 samples.

Results

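Small nucleolar RNAs (snoRNAs) are short nuclear RNAs, and their genes were taken here as all genes of the deposited table whose symbol begins with SNORD or SNORA. The rule found 158 of 14114 genes. Of these, 80 were SNORD genes, the C/D class, and 78 were SNORA genes, the H/ACA class. RNA was sequenced from 3 established human lines of triple-negative breast cancer, all basal: MDA-MB-157 and MDA-MB-231, besides MDA-MB-468. Such lines lack oestrogen receptor alpha and progesterone receptor and do not overexpress HER2. Cells were exposed for 3 h to 0.05% DMSO (v/v), to 1000 nM thalidomide, to 1000 nM BETi-211 or to 100 nM BETd-246. BETi-211 inhibits the BET proteins, bromodomain proteins that bind acetylated chromatin and promote transcription, and BETd-246 causes their degradation. Thalidomide, a ligand of the ubiquitin ligase subunit cereblon, and DMSO both served as controls. Each of the 12 groups of line and treatment held 2 libraries, described as independent biological replicates, so a line had 4 control libraries and the series 24 libraries. Sets of 3 values below follow the lines by number, with MDA-MB-157 first and MDA-MB-468 last.

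C/D RNAs assemble with fibrillarin and its partners and guide ribose methylation, and H/ACA RNAs assemble with dyskerin and guide pseudouridylation, mainly of ribosomal RNA. A few members of both classes act in the cleavage of the ribosomal RNA precursor instead. In human cells most snoRNAs are not transcribed from promoters of their own. They lie in introns of host genes, many of which encode ribosomal proteins or are long non-coding RNAs of the SNHG group, and are trimmed from the intron after splicing. Their level therefore depends on transcription of the host, on splicing and on the stability of the finished particle.

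The classes carry different sequence elements. C/D RNAs have a C box near the 5′ end and a D box near the 3′ end, and H/ACA RNAs have an H box between their hairpins and an ACA near the 3′ end. Of the 6 C/D RNAs below, 5 are members with large falls or opposed changes under the compounds. SNORD22 (ENSG00000277194) is shown as the copy in the same host that was not called after BETd-246. All are given 5′ to 3′. Capitals mark TGATGA starting within the first 15 bases and CTGA starting within the last 14 bases, which are the C and D box letters searched.
SNORD27: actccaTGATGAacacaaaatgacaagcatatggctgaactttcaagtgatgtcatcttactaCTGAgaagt
SNORD28: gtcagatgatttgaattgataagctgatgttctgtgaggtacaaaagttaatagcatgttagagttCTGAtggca
SNORD22 (ENSG00000278527): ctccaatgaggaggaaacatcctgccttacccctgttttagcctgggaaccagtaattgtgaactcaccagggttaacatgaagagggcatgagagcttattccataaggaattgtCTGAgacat
SNORD22 (ENSG00000277194): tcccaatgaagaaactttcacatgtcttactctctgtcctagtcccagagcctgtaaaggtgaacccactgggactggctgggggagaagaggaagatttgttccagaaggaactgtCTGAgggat
SNORD14D: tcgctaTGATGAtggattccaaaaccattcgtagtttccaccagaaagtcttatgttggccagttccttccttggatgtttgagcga
SNORD35A: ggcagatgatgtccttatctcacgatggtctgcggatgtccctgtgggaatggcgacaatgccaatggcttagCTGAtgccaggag

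The sequences are those of GENCODE 29 on GRCh38, for SNORD27 at chr11:62855012-62855083 (- strand), SNORD28 at chr11:62854621-62854695 (- strand), SNORD22 (ENSG00000278527) at chr11:62854161-62854285 (- strand) and SNORD22 (ENSG00000277194) at chr11:62852910-62853035 (- strand). These 4 lie in introns of the long non-coding RNA gene SNHG1. SNORD14D lies at chr11:123058909-123058995 (- strand) in an intron of HSPA8, which encodes the constitutive heat shock protein HSC70. SNORD35A lies at chr19:49491175-49491260 (+ strand) in RPL13A, a ribosomal protein gene. The SNORD22 copies shared 65.4% of aligned bases.

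The 5 H/ACA RNAs below are 2 members with large falls after BETd-246 (SNORA81, SNORA5B), 1 that rose with BETi-211 (SNORA61) and 2 abundant members that were not called with either compound (SNORA63 and SNORA73B). Capitals mark the first ANANNA that starts between 35% and 65% of the length, and ACA starting within the last 8 bases.
SNORA81: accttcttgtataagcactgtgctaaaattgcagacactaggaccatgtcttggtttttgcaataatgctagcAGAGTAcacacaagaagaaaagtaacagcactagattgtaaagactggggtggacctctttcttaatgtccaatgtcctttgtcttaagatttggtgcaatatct
SNORA63 (ENSG00000200320): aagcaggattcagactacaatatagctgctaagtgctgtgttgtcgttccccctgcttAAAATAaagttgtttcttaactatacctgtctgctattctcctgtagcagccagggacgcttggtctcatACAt
SNORA5B: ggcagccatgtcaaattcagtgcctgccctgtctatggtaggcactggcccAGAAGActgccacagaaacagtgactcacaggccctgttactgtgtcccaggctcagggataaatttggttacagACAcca
SNORA61: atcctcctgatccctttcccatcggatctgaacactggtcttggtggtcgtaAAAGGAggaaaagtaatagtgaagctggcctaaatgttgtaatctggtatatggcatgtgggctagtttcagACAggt
SNORA73B: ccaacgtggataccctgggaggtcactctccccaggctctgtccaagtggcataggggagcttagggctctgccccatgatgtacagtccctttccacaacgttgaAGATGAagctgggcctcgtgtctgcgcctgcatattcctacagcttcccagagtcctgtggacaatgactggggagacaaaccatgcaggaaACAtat

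SNORA81 lies at chr3:186786675-186786852 (+ strand) and SNORA63 (ENSG00000200320) at chr3:186787300-186787431 (+ strand), both in introns of EIF4A2, a translation initiation factor gene. SNORA5B lies at chr7:45105968-45106099 (- strand) in TBRG4, SNORA61 at chr1:28579764-28579893 (- strand) in SNHG12 and SNORA73B at chr1:28508559-28508762 (+ strand) in SNHG3. SNORA73B is the RNA also called U17, which acts in ribosomal RNA processing.

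Sequence was found for 76 C/D and 77 H/ACA members, each with 1 annotated transcript. On the RNA strand, which alone was searched, TGATGA was present in its window in 47 of 76 C/D members (61.8%) and in 0 of 77 H/ACA members. CTGA was present in 71 of 76 C/D members (93.4%) and in 2 of 77 H/ACA members. The H box letters were present in 70 of 77 H/ACA members (90.9%) and in 22 of 76 C/D members (28.9%). ACA near the end was present in 71 of 77 H/ACA members (92.2%) and in 11 of 76 C/D members. Both H/ACA elements were present in 65 H/ACA and 2 C/D members, so the class given by the symbol and the letters of the sequence went together. The median GC content was 43.8% in the C/D class and 47.7% in the H/ACA class.

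Of the 158 members, all but SNORD50A were found in the annotation. All 76 C/D members and 75 H/ACA members with a host gene in the table lay within an intron of at least 1 transcript of that host, in 45 and 55 different hosts. An exon of another transcript of the same host overlapped 54 of the C/D and 34 of the H/ACA members. The median distance from the member to the next exon downstream was 93 bases in the C/D class and 203 bases in the H/ACA class, and 39 C/D and 19 H/ACA members lay within 50 to 100 bases of it. The libraries were made from fragmented, ribosome-depleted total RNA with random primers and do not mark the strand. Fragments of unspliced or alternatively spliced host RNA can therefore not be told apart from those of the finished snoRNA, nor can antisense transcripts, which overlapped 4 C/D and 10 H/ACA members.

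The values are FPKM, mapped fragments of a gene scaled by the length of its transcript and by the depth of the library. Members of both classes were short, with a median length of 80 bases (C/D) and 134 bases (H/ACA). The mean over the 24 libraries had a median of 3.92 FPKM (range 0.943 to 250) in the C/D class and 5.14 FPKM (range 0.992 to 495) in the H/ACA class. Library depth implied by the values was 43500000 to 65600000 fragments, and 1 FPKM then stood for only 3.12 fragments in a C/D and 6.13 in an H/ACA gene of median length. A median of fewer than 10 fragments in the control libraries was found for 29 of 76 C/D and 12 of 77 H/ACA members, whose values carry a large counting error. A value of 0 was listed in 68 of 1920 C/D values (24 members) and in 17 of 1872 H/ACA values (8 members). The table holds only genes that passed a filter on expression, with a highest group mean of at least 1.22 FPKM over all genes and 1.63 FPKM over the members.

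The most abundant C/D genes were SNORD3A at 250 FPKM, SNORD17 at 168 FPKM, SNORD10 at 153 FPKM, SNORD86 at 51.4 FPKM and SNORD26 at 30.1 FPKM, as means over the 24 libraries. SNORD3A encodes U3, which acts in cleavage of the ribosomal RNA precursor and, with few others, is transcribed from its own promoter. SNORD118 and SNORD13, which also have their own promoters, are not analysed here. The most abundant H/ACA genes were SNORA73B at 495 FPKM, SNORA48 at 267 FPKM, SNORA57 at 232 FPKM, SNORA63 (ENSG00000200320) at 170 FPKM and SNORA70 at 58.2 FPKM. A mean of at least 20 FPKM was reached by 6 C/D and 15 H/ACA genes.

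Among the receptor and lineage markers, ERBB2 (HER2) was at 11.6 to 19.2 FPKM in the control libraries. ESR1 and PGR, the receptor genes behind the triple-negative label, are not analysed here. The basal keratin gene KRT5 was at 698 to 793 FPKM in MDA-MB-468 and at most 0.667 FPKM in the other lines, so this marker of the labelled basal subtype was near 0 in both of these. EPCAM was also low in them, at 1.58 to 3.74 FPKM. Other markers were lower there than in MDA-MB-468 but well above 0. KRT8 was at 148 to 173 FPKM, KRT18 at 200 to 308 FPKM and EGFR at 10.3 to 58.4 FPKM. VIM ran the other way, at 816 to 2018 FPKM in these lines and 11.6 to 12.7 FPKM in MDA-MB-468. The immune marker CD14 was at 50.9 to 59.8 FPKM in MDA-MB-157 controls and at most 0.73 FPKM in the other lines. CSF1R, also an immune marker, was at 3.04 to 3.84 FPKM in MDA-MB-157 and at most 0.917 FPKM in the others. The source of these values was not tested, and further markers of other cell types are not analysed here. Between the libraries of a group, log2 values of all genes correlated at 0.992 to 0.998 and those of the members at 0.956 to 0.973, as descriptions across genes.

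In MDA-MB-157, 3 libraries stood apart in their abundant snoRNAs: DMSO replicate 1, BETi-211 replicate 1 and BETd-246 replicate 1. Their H/ACA values summed to 3429, 3429 and 2614 FPKM, against 1752 to 2047 FPKM in the other 5 libraries of the line. Their C/D values summed to 1132, 1530 and 891 FPKM, against 617 to 783 FPKM. SNORA73B alone was at 954, 1121 and 810 FPKM in them and at 473 to 549 FPKM in the other 5. Counts called for the compounds in this line are given below with and without these 3 libraries. In differences of this line from the other lines, DMSO replicate 1 is among the controls, and most values are given with it only.

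Members were tested within a limma fit to log2(FPKM + 1) of all 14114 genes. Called means an adjusted p under 0.05 by the method of Benjamini and Hochberg. Changes and differences are log2 values on that scale, with their standard error (SE). The scale understates fold changes where levels are low.

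The first question was how the snoRNA genes differed between the lines before exposure to a BET compound. C/D genes were lower in MDA-MB-157 than in the other lines, while H/ACA genes were spread around 0. In the control libraries the median C/D level was 2.16 to 2.47 FPKM in MDA-MB-157, 4.14 to 4.68 FPKM in MDA-MB-231 and 4.24 to 5.21 FPKM in MDA-MB-468. The MDA-MB-157 libraries thus lay below all others, and the other lines overlapped. The median H/ACA level was 3.86 to 6.12, 4.34 to 4.83 and 4.2 to 5.31 FPKM, and all 3 lines overlapped.

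**Figure D1:**
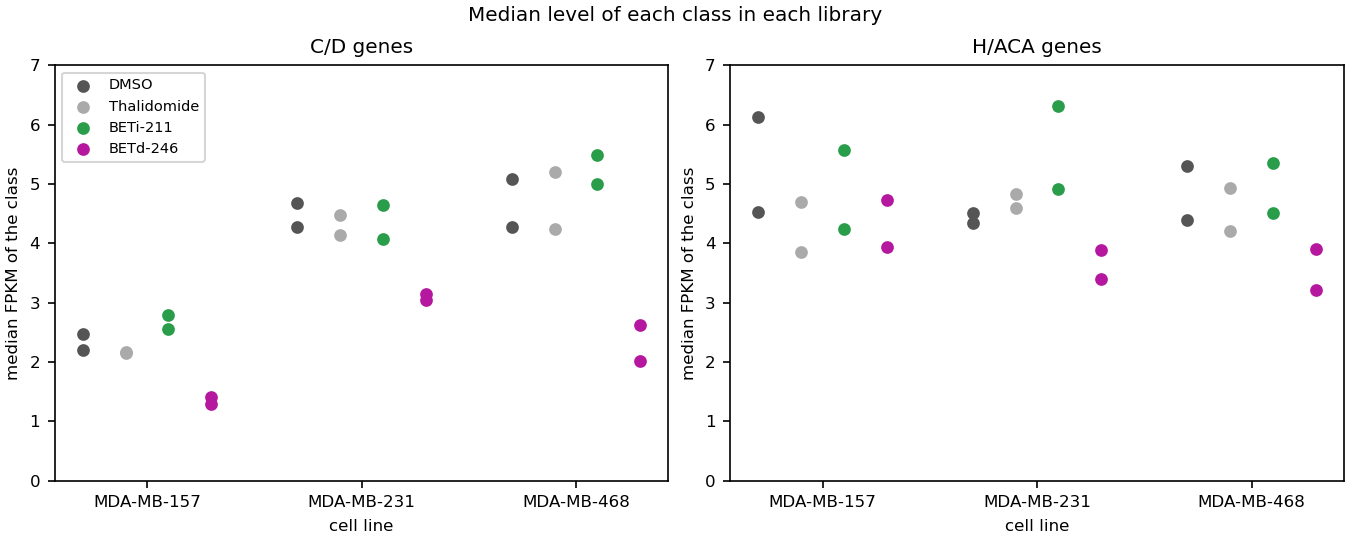
Median FPKM of the 80 C/D genes (left) and 78 H/ACA genes (right) in each library, 1 dot per library, by line (x axis) and treatment (colour). C/D medians with BETd-246 lie below all control medians of the same line, and those of MDA-MB-157 lie below the other lines. The H/ACA medians with BETd-246 lie below the controls in MDA-MB-231 (3.88 and 3.4 FPKM) and MDA-MB-468 (3.91 and 3.21 FPKM) and overlap them in MDA-MB-157.

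Against MDA-MB-231, 46 of 80 C/D genes were called lower in MDA-MB-157 and 4 higher, where 37.2% of all genes were called lower and 50.1% higher (87.4% in either direction). The median C/D difference was -0.59, against 0.13 over all genes. Against MDA-MB-468, 46 C/D genes were again called lower and 4 higher (background 42.1% lower, 46.0% higher, 88.0% in either direction), with a median of -0.75 against 0.04 over all genes. The C/D share called lower, 57.5% in both comparisons, was above the background, and the share called higher, 5.0%, was below it. These comparisons share the MDA-MB-157 libraries.

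The H/ACA class did not take this direction. Against MDA-MB-231, 26 of 78 genes were called lower and 29 higher in MDA-MB-157, with a median of 0.13, which fell to -0.26 with quantile normalization and was -0.01 without the 3 libraries named above. Against MDA-MB-468, 30 were called lower and 24 higher, with a median of -0.19. In MDA-MB-231 against MDA-MB-468, 19 C/D genes were lower and 12 higher, and 27 H/ACA genes lower and 21 higher (background 47.8% lower, 38.4% higher, 86.2% in either direction), with all shares under the background. Their medians of -0.05 (C/D) and -0.06 (H/ACA) became 0.12 and 0.15 with quantile normalization.

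The genes called higher in MDA-MB-157 among the C/D class were SNORD116-13, SNORD10 and SNORD3B-1 in both comparisons, SNORD50A against MDA-MB-231 and SNORD93 against MDA-MB-468. SNORD116-13 belongs to the imprinted SNORD116 cluster of the Prader-Willi region on chromosome 15, within the host transcript SNHG14. It was at 2.27, 6.42, 3.28 and 1.82 FPKM in the MDA-MB-157 controls, with the DMSO libraries first, and was listed at 0 in all 16 libraries of the other lines. It thus passed the table's filter through MDA-MB-157 alone, so its call there had to follow. SNORD10 was at 390, 263, 180 and 187 FPKM in the MDA-MB-157 controls, at 91.9 to 124 FPKM in MDA-MB-231 and at 74.4 to 96.1 FPKM in MDA-MB-468, without overlap between MDA-MB-157 and the others.

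SNORD26, in SNHG1, was the C/D gene furthest below MDA-MB-468 in MDA-MB-157. Its control values were 4.24, 8.56, 6.56 and 5.89 FPKM in MDA-MB-157, 10.1, 12, 8.87 and 11.2 FPKM in MDA-MB-231 and 78.4, 71.4, 66.0 and 84.9 FPKM in MDA-MB-468. The 3 lines did not overlap, and the difference of MDA-MB-157 from MDA-MB-468 was -3.41 (SE 0.15, adjusted p 1.35e-12). Among H/ACA genes, SNORA48 was at 376 to 808 FPKM in MDA-MB-157, 150 to 219 FPKM in MDA-MB-231 and 69.4 to 96.9 FPKM in MDA-MB-468 controls, a difference of 2.59 (SE 0.21, adjusted p 4.71e-09) between the first and the last. SNORA57 ran the other way, at 86.6 to 178, 169 to 230 and 284 to 380 FPKM.

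Genes of the C/D protein core were also lower in MDA-MB-157. All 4 of FBL (the methyltransferase fibrillarin), NOP56, NOP58 and SNU13 were called lower in MDA-MB-157 than in MDA-MB-231 and than in MDA-MB-468, with medians of -0.57 and -0.83. Of the 4 H/ACA protein genes DKC1 (dyskerin), NHP2, NOP10 and GAR1, 2 were lower and 1 higher in both comparisons. Of all genes 37.2% and 42.1% were called lower. Of 13 genes of snoRNA particle assembly and transport, 7 were lower and 3 higher against MDA-MB-231 (median -0.72). Against MDA-MB-468, 8 of these 13 were lower and 2 higher (median -0.39). Lower protein genes were thus not particular to the C/D core. Host genes of C/D members were also lower in MDA-MB-157 than in MDA-MB-231 by the median, at -0.33 for 17 ribosomal protein hosts (7 higher and 10 lower) and -0.34 for 28 other hosts (6 higher and 19 lower). Against MDA-MB-468 the host medians were -0.38 and -0.23. The 12 ribosomal protein hosts of H/ACA members had medians of -0.34 and -0.47 in the same comparisons. The 43 other hosts of that class had -0.05 and -0.19. Lower ribosomal protein hosts were thus not particular to the C/D class. The part of the hosts in the difference of the members was not tested.

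The second question was what BET degradation did to these genes within 3 h. After BETd-246, most called C/D genes fell in every line and 2 rose, and the called H/ACA genes fell with 1 exception, as the plot of changes by class and line shows. The number of C/D genes called lower was 25, 26 and 32 of 80, and 2 were called higher in each line. The number of H/ACA genes called lower was 9, 13 and 15 of 78, and only SNORA42 in MDA-MB-231 was called higher (0.53, adjusted p 0.0125). The background over all genes was 32.4%, 33.3% and 33.7% called lower and 19%, 14.8% and 20.1% called higher (51.5%, 48.1% and 53.9% in either direction).

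**Figure D2:**
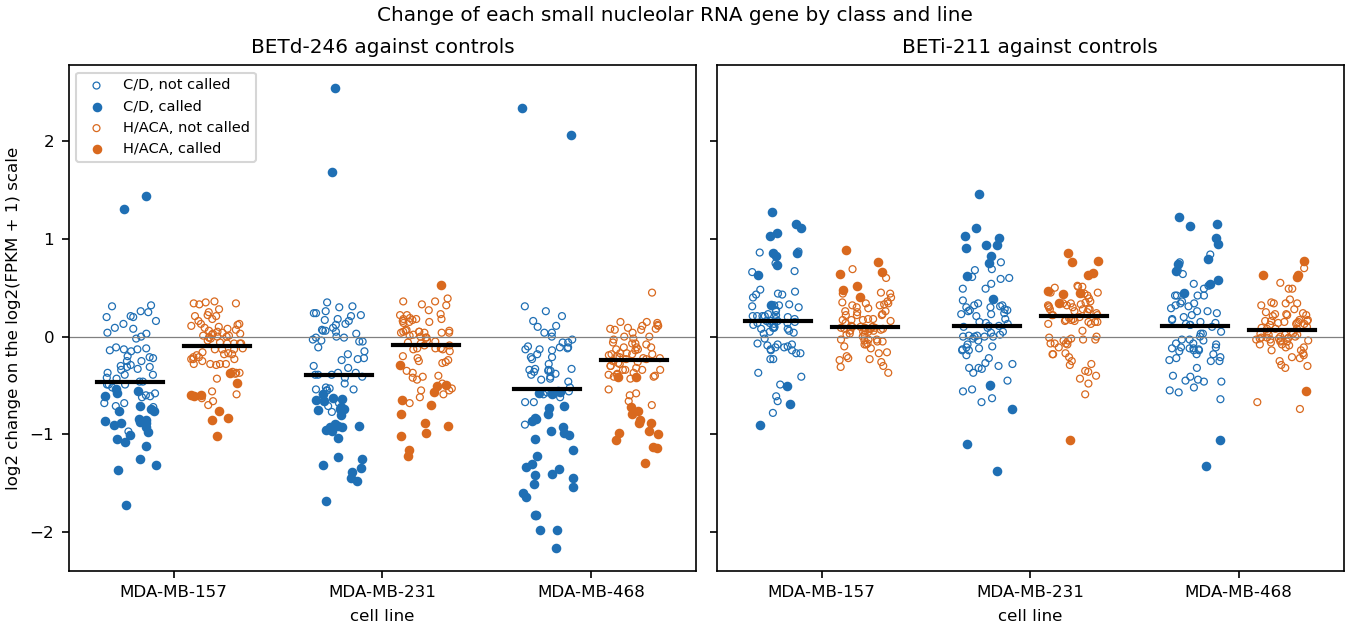
Log2 change of each member after BETd-246 (left) and BETi-211 (right) against the controls of the same line, on the log2(FPKM + 1) scale, for C/D (blue) and H/ACA (orange) genes; filled dots were called and black bars are class medians. With BETd-246 the C/D medians are -0.46, -0.39 and -0.54 and the H/ACA medians -0.10, -0.09 and -0.24.

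Read against this background, the share of C/D genes called lower in single lines (31.2%, 32.5% and 40.0%) was near that of all genes in MDA-MB-157 and MDA-MB-231 and above it in MDA-MB-468. The H/ACA share (11.5%, 16.7% and 19.2%) was below it. With quantile normalization 15, 12 and 23 C/D genes were called lower (18.8%, 15% and 28.7%), below the 23.2% and 20.8% of all genes in the first 2 lines and above the 23.1% in the last. Rises were few in both classes, at 2.5% of C/D and at most 1.28% of H/ACA genes, under the background in every line. The median C/D change was -0.46, -0.39 and -0.54, against -0.03, -0.05 and -0.03 over all genes. The median H/ACA change was -0.10, -0.09 and -0.24. The change was below 0, called or not, in 64, 58 and 69 of 80 C/D genes and in 49, 47 and 63 of 78 H/ACA genes.

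On the average of the 3 lines, 45 C/D genes were called lower and 2 higher (56.2% and 2.5%, background 42.2% and 27.9%, or 70.1% in either direction), with a median of -0.50. On the same average 21 H/ACA genes were called lower and 0 higher (26.9% and 0.0%), with a median of -0.14 against -0.04 over all genes. Adjustment over all genes left 2 of 49 C/D and 3 of 24 H/ACA genes with an unadjusted p below 0.05 uncalled. The C/D direction held with each scaling tried, with medians of -0.24 (quantile), -0.37 (median of ratios) and -0.55 (column total). C/D calls were then 30 lower and 5 higher, 42 lower and 4 higher, and 47 lower and 2 higher. The H/ACA direction did not, with medians of 0.01, -0.01 and -0.23. Calls for H/ACA genes were 16 lower and 8 higher, 17 lower and 7 higher, and 31 lower and 0 higher in the same order. The same scalings moved the median of all genes to 0.08, 0.09 and -0.12. With quantile normalization 27.4% of all genes were called lower and 49.6% higher. The C/D share called lower was above that and the H/ACA share below it, and both shares called higher were below it. Shares over all genes are not given here for the other scalings.

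Without the 3 MDA-MB-157 libraries that stood apart, 15 C/D genes were called lower and 2 higher in that line, with a median of -0.41, and 7 H/ACA genes were called lower, with a median of -0.10. These are 18.8% of C/D and 8.97% of H/ACA genes, where 26% of all genes were then called lower in the line. On the average of the 3 lines 41 C/D genes (51.2%) were then called lower, 2 higher, and 24 H/ACA genes (30.8%) lower, beside 39.6% of all genes. The C/D medians per library with BETd-246 were 1.3 and 1.41 FPKM in MDA-MB-157, 3.15 and 3.04 FPKM in MDA-MB-231 and 2.63 and 2.02 FPKM in MDA-MB-468, below all 4 controls of each line. The H/ACA medians with BETd-246, 3.88 and 3.4 FPKM in MDA-MB-231 and 3.91 and 3.21 FPKM in MDA-MB-468, were also below all controls. In MDA-MB-157 they were 4.73 and 3.94 FPKM, within the controls. Whether fewer cells or less RNA per cell contributed cannot be told apart in bulk RNA.

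In all 3 lines, 13 C/D genes were called lower after BETd-246: SNORD12C, SNORD14D, SNORD22 (ENSG00000278527), SNORD27, SNORD28, SNORD35A, SNORD36A, SNORD36C, SNORD46, SNORD72, SNORD73A, SNORD83B and SNORD96A. In the H/ACA class 2 genes were, SNORA62 and SNORA81. These are 16.2% of C/D and 2.56% of H/ACA genes, and 23.6% of all genes were called lower in all 3 lines. In at least 1 line 43 C/D and 22 H/ACA genes were called lower (53.8% and 28.2%, against 43.3% of all genes).

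SNORD35A, a guide RNA within RPL13A whose sequence is given above, had the largest fall on the average. It was at 11.5, 10.6, 8.99 and 8.26 FPKM in the MDA-MB-157 controls (DMSO first) and at 2.78 and 1.83 FPKM with BETd-246. The MDA-MB-231 values were 12.9, 21.3, 11.6 and 13.5 FPKM in controls and 5.75 and 3.69 FPKM with BETd-246. In MDA-MB-468 it was at 8.99, 10.3, 7.8 and 9.9 FPKM and at 1.72 and 1.48 FPKM. Groups did not overlap in any line, and the changes were -1.72, -1.45 and -1.98 (SE 0.24 each, adjusted p 1.94e-05, 0.000109 and 3.32e-06). With BETi-211 it was at 9.25 and 4.75, 12.6 and 7.27, and 8.16 and 8.64 FPKM, and no line was called. Its average change with BETi-211 was -0.38 (SE 0.14, adjusted p 0.0236), which was called, but not with quantile normalization (-0.27, adjusted p 0.105) or median-of-ratios scaling (-0.31, adjusted p 0.0596).

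SNORD28, in SNHG1, fell in all 3 lines. Its MDA-MB-468 values were 12.8, 21.2, 11.6 and 22.2 FPKM in controls, 4.17 and 2.7 FPKM with BETd-246 and 27.7 and 25.4 FPKM with BETi-211. The change with BETd-246 was -0.88, -1.34 and -1.98 (SE 0.26 each), with limma adjusted p values of 0.011, 0.000511 and 8.19e-06. BETd-246 libraries lay below all controls of each line, and BETi-211 libraries above them in MDA-MB-468 and MDA-MB-231.

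SNORD27, next to SNORD28, was at 2.9, 2.27, 1.33 and 2.58 FPKM in MDA-MB-157 controls and at 0 and 0.675 FPKM with BETd-246. The changes were -1.31, -0.91 and -1.82 (SE 0.30 each), and in MDA-MB-231 1 BETd-246 library, at 6.19 FPKM, lay within the controls (5.5 to 10.3 FPKM). SNORD46 was at 4.78 to 6.18 FPKM in MDA-MB-157, 6.1 to 9.38 FPKM in MDA-MB-231 and 6.26 to 9.36 FPKM in MDA-MB-468 controls. With BETd-246 it was at 3.5 and 3.44, 1.98 and 1.43, and 2.22 and 1.72 FPKM, below all controls of each line, with changes of -0.54, -1.68 and -1.54 (SE 0.19 each).

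**Figure D3:**
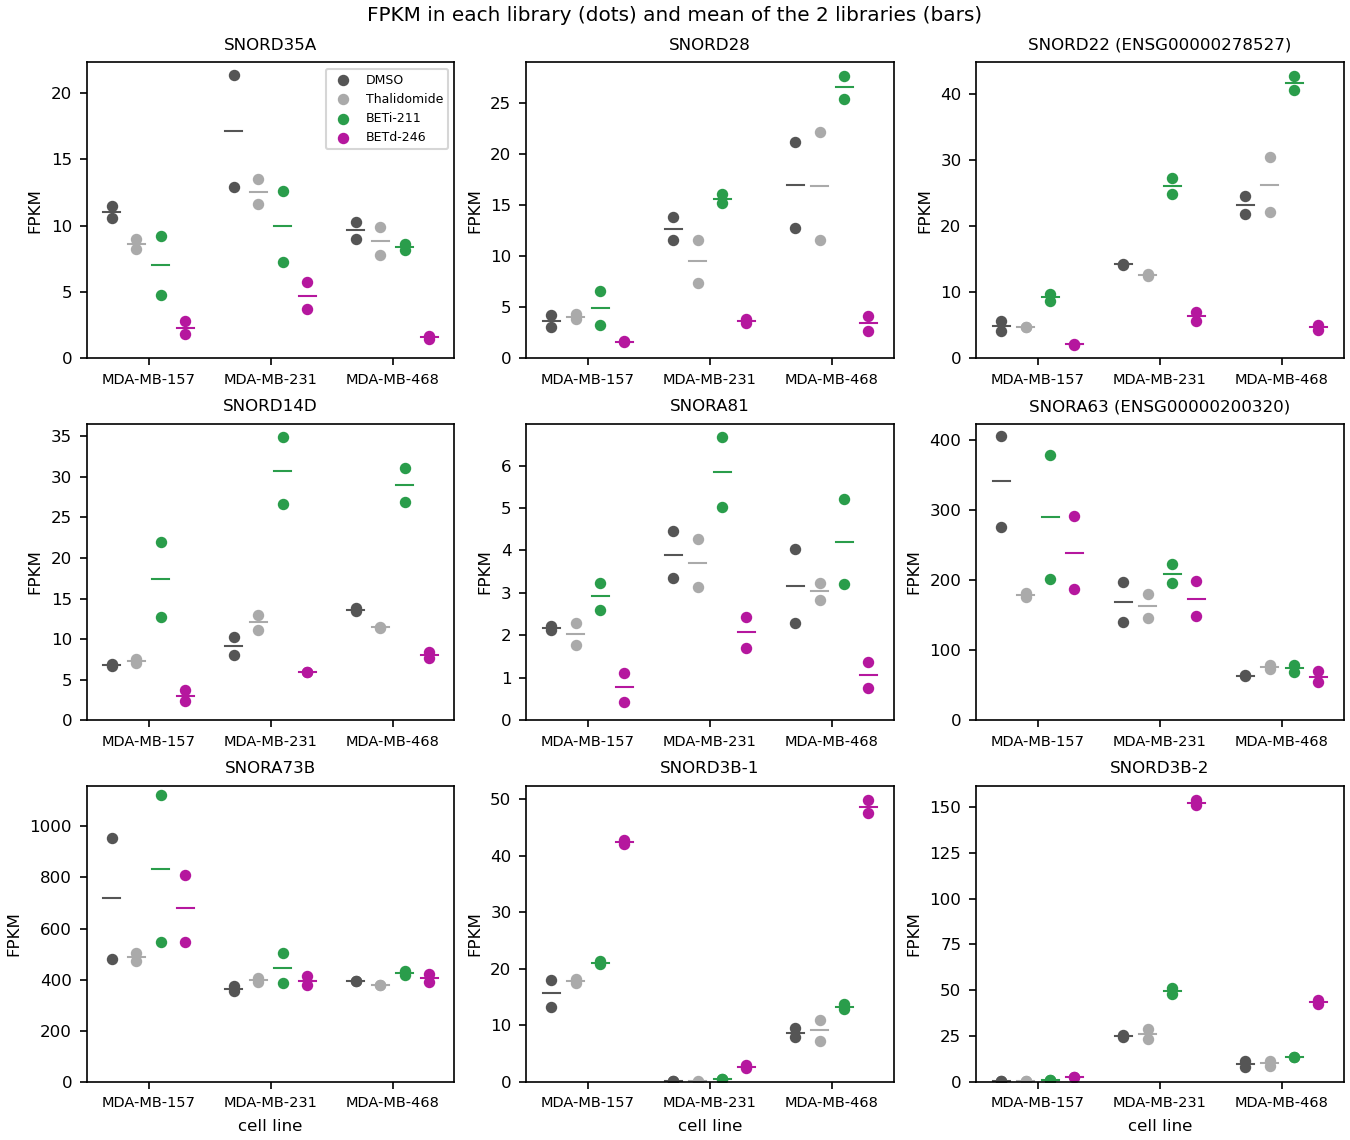
FPKM of 9 members in every library (dots) with the mean of the 2 libraries of a group (bars), by line and treatment, each panel with its own axis from 0. SNORD35A, SNORD28, SNORD22 (ENSG00000278527) and SNORD14D are lowest with BETd-246; SNORA63 and SNORA73B show no such step; SNORD3B-1 and SNORD3B-2 are highest with BETd-246.

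Among H/ACA genes, the largest falls on the average were smaller than those of C/D genes. SNORA81, in EIF4A2, was at 2.21, 2.13, 1.76 and 2.29 FPKM in MDA-MB-157 controls and at 1.12 and 0.421 FPKM with BETd-246. The MDA-MB-231 values were 3.13 to 4.46 FPKM against 2.44 and 1.7 FPKM, and in MDA-MB-468 at 2.28 to 4.03 FPKM against 1.38 and 0.746 FPKM. Groups did not overlap, and changes were -0.83, -0.65 and -0.99 (SE 0.22 each, adjusted p 0.0044, 0.0217 and 0.00109).

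SNORA62, in the ribosomal protein gene RPSA, fell by 0.76, 0.51 and 1.06 on the log2 scale (SE 0.15 each). Its BETd-246 values were 1.34 and 0.628, 2.46 and 2.66, and 0.962 and 1.25 FPKM, below control ranges of 1.85 to 2.87, 3.18 to 4.53 and 2.54 to 4.02 FPKM. SNORA5B had the largest average change of the class, -0.99 (SE 0.16, adjusted p 3.3e-05), at control levels of 0.669 to 3.44 FPKM and BETd-246 levels of 0 to 0.399 FPKM. In MDA-MB-157 its change of -0.66 was not called (adjusted p 0.0504). SNORA22 (ENSG00000206603), SNORA71 and SNORA1 followed with average changes of -0.86, -0.83 and -0.79.

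The changes were also set beside abundance, taken as the mean over all 24 libraries, treated ones included. Of the 15 H/ACA genes at 20 FPKM or more, 0 were called after BETd-246, with a median average change of 0.03 and a range of -0.21 to 0.18. Below that level, 7 of 19 genes under 2 FPKM, 7 of 19 between 2 and 5 FPKM and 7 of 25 between 5 and 20 FPKM were called lower (36.8%, 36.8% and 28.0%), all under the background of 42.2%. In the C/D class the counts called lower in the same 3 steps were 11 of 23, 15 of 25 and 17 of 26 (47.8%, 60.0% and 65.4%), all above it. Of the 6 C/D genes at 20 FPKM or more, SNORD26 and SNORD86 were called lower and SNORD3B-2 higher. SNORD3B-2 reached that level through its BETd-246 libraries, with control means of 0.305, 25.5 and 9.83 FPKM. In each step under 20 FPKM the C/D share was the larger, with medians of -0.48, -0.37 and -0.61 against -0.22, -0.22 and -0.15.

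**Figure D4:**
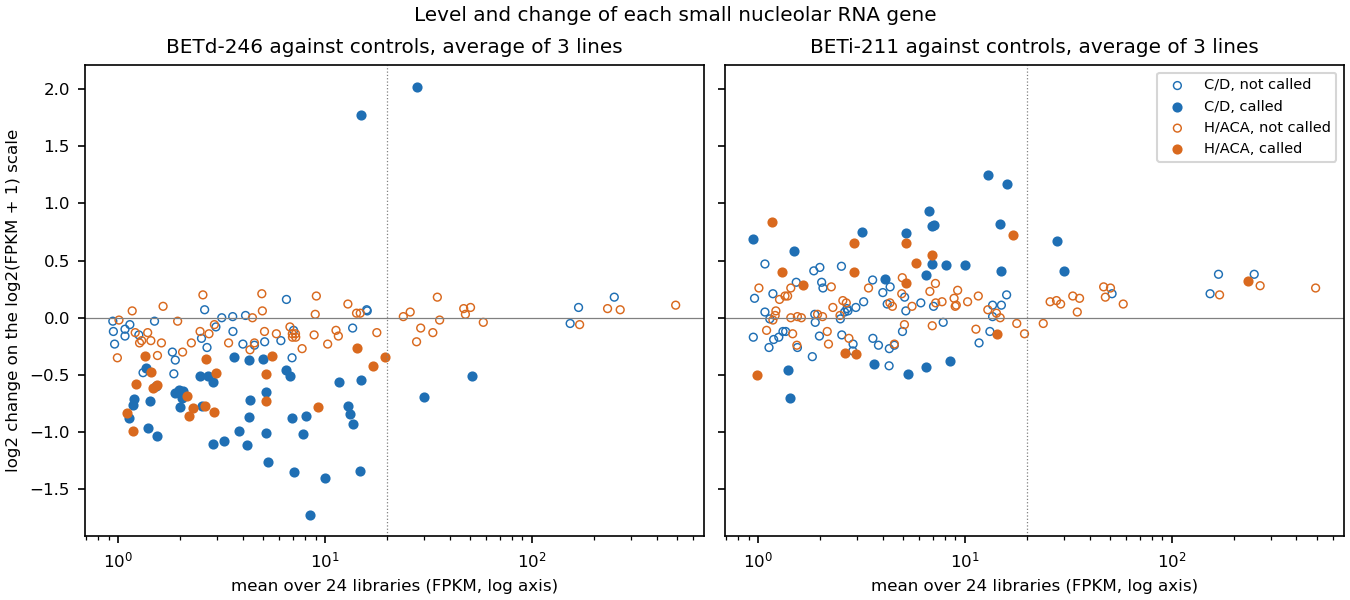
Mean FPKM over the 24 libraries (log axis) against the log2 change on the average of the 3 lines after BETd-246 (left) and BETi-211 (right), 1 dot per member, filled where called; the dotted line is at 20 FPKM. Right of that line no H/ACA gene (orange) was called after BETd-246, and falls of both classes lie to its left apart from SNORD26 and SNORD86.

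SNORA63 (ENSG00000200320), the abundant H/ACA RNA of EIF4A2 printed above, is one of them. Its MDA-MB-231 values were 140, 197, 145 and 180 FPKM in controls and 199 and 148 FPKM with BETd-246, and those of MDA-MB-468 were 64.6, 62.5, 79.3 and 73.6 FPKM against 69.6 and 54.7 FPKM. The groups overlapped, with an average change of -0.06 (SE 0.14, adjusted p 0.708). SNORA73B was at 355 to 407 FPKM in MDA-MB-231 controls and at 414 and 378 FPKM with BETd-246, and its average change was 0.11 (SE 0.14, adjusted p 0.496). SNORD3A, at 260, 287, 248 and 262 FPKM in MDA-MB-231 controls and 325 and 270 FPKM with BETd-246, changed by 0.18 (SE 0.19, adjusted p 0.422) on the average.

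The 2 members that rose in every line were SNORD3B-1 and SNORD3B-2, further U3 genes, which like SNORD3A are not intronic. SNORD3B-1 was at 18.1, 13.3, 18.2 and 17.5 FPKM in MDA-MB-157 controls and at 42.1 and 42.7 FPKM with BETd-246. In MDA-MB-468 it was at 9.44, 7.95, 7.24 and 11 FPKM and at 47.5 and 49.9 FPKM. In MDA-MB-231 it was listed near 0, at 0.156, 0.197, 0.18 and 0.0487 FPKM, and at 2.43 and 2.94 FPKM with BETd-246. Groups did not overlap, and the changes were 1.30, 1.68 and 2.34 (SE 0.12 each, adjusted p 2.27e-07, 8.48e-09 and 9.27e-11).

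SNORD3B-2 was low in another line. It was at 0.423, 0.19, 0.332 and 0.276 FPKM in MDA-MB-157 controls and 2.55 and 2.53 FPKM with BETd-246. The MDA-MB-231 values were 24.5, 25.5, 23.3 and 28.6 FPKM, then 151 and 154 FPKM, and those of MDA-MB-468 were 11.4, 7.93, 8.64 and 11.4 FPKM, then 42.7 and 44.7 FPKM. The changes were 1.44, 2.54 and 2.06 (SE 0.12 each), again without overlap. With BETi-211 both genes rose less, by 0.32, 0.38 and 0.54 for SNORD3B-1 and by 0.63, 0.94 and 0.45 for SNORD3B-2, all called. The order of the lines in the changes of both genes depends on the 1 FPKM added before the logarithm. As plain ratios of mean FPKM, BETd-246 over controls, SNORD3B-1 stood at 2.53, 18.5 and 5.47 and SNORD3B-2 at 8.34, 6.0 and 4.45.

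The 3 U3 genes are annotated with 3 transcripts each, at chr17:19188016-19188714 (+ strand, SNORD3A), chr17:19061912-19062669 (+ strand, SNORD3B-1) and chr17:19063346-19064136 (- strand, SNORD3B-2). Their shortest transcripts, of 217 bases, shared 99.5% to 100.0% of aligned bases, and the longest 85.9% to 92.4%. Fragments of the mature RNA cannot be assigned to 1 copy with certainty, so the split of U3 between these genes is uncertain. The longest transcripts reach past the mature RNA. Whether the rise was of mature U3 or of longer transcripts was not tested, since the table has 1 value per gene.

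BETi-211, at 1000 nM against 100 nM for BETd-246, was given at another dose, and the next values stand beside those of the degrader with that difference in mind. Both share the same control libraries. After BETi-211, snoRNA genes rose more often than they fell. C/D genes called higher were 11 in each line, and 3, 4 and 2 were called lower, where the background was 14.9%, 18.7% and 21.3% higher and 30.9%, 31.4% and 32.5% lower (45.8%, 50.1% and 53.9% in either direction). H/ACA genes called higher were 7, 9 and 4, and 0, 1 and 1 were called lower.

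The shares called higher (13.8% of C/D in each line, and 8.97%, 11.5% and 5.13% of H/ACA) were under the background, and the shares called lower, at most 5.0%, were far under it. The median change was 0.16, 0.11 and 0.11 in the C/D class and 0.10, 0.21 and 0.06 in the H/ACA class, against -0.03, -0.03 and -0.01 over all genes. On the average of the 3 lines 18 C/D genes were called higher and 6 lower, and 11 H/ACA genes higher and 4 lower (background 26.6% higher, 40.6% lower, 67.2% in either direction). With quantile normalization the H/ACA calls were 19 higher and 2 lower, with median-of-ratios scaling 23 and 3, and with column-total scaling 10 and 6. Of all genes 35.5% were called higher and 32.9% lower with quantile normalization, so both H/ACA shares were under the background there. Shares over all genes are not given here for the other scalings. Without the 3 MDA-MB-157 libraries that stood apart, that line had 5 C/D genes called higher and 6 lower, and 2 H/ACA genes higher and 4 lower, so the excess of rises in that line rested on them. Of all genes 12.7% were then called higher there and 23.9% lower.

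The C/D genes called lower in a line were SNORD23, SNORD93 and SNORD95 in MDA-MB-157, SNORD36C, SNORD72, SNORD93 and SNORD95 in MDA-MB-231, and SNORD46 and SNORD49A in MDA-MB-468. The H/ACA genes were SNORA45B in MDA-MB-231 and SNORA6 in MDA-MB-468. Genes called higher in all 3 lines were SNORD14D, SNORD14E, both SNORD22 copies, SNORD3B-1 and SNORD3B-2 in the C/D class. In the H/ACA class they were SNORA44, SNORA55, SNORA61 and SNORA2 (ENSG00000206647), the last of which may have passed the table's filter through its BETi-211 groups. These are 7.5% of C/D and 5.13% of H/ACA genes, beside 8.26% of all genes.

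SNORD14D, of the U14 family that acts in processing of the small subunit ribosomal RNA, had the largest rise. It was at 6.86, 6.64, 7.58 and 7.01 FPKM in MDA-MB-157 controls, at 22 and 12.7 FPKM with BETi-211 and at 3.76 and 2.31 FPKM with BETd-246. In MDA-MB-231 the values were 10.3, 8.03, 11.1 and 13 FPKM, then 34.9 and 26.6, then 5.98 and 5.97 FPKM. In MDA-MB-468 they were 13.4, 13.8, 11.4 and 11.5 FPKM, then 26.9 and 31.1, then 8.44 and 7.66 FPKM. Controls lay between the 2 compounds in every line, without overlap, and the average change was 1.25 (SE 0.10, adjusted p 1.15e-08) with BETi-211 and -0.77 (SE 0.10, adjusted p 4.42e-06) with BETd-246.

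SNORA61, in SNHG12, also lay above all controls with BETi-211 in each line. In MDA-MB-468 it was at 23.7, 23.2, 20.7 and 22.9 FPKM in controls, at 34.7 and 36.3 FPKM with BETi-211 and at 17.1 and 16.5 FPKM with BETd-246. Its average change was 0.72 (SE 0.08, adjusted p 4.77e-07) with BETi-211 and -0.42 (SE 0.08, adjusted p 0.000166) with BETd-246, which was not called in MDA-MB-231 (-0.26, adjusted p 0.13). In that line its BETd-246 values of 14.8 and 9.26 FPKM overlapped the controls, at 13.2 to 15 FPKM. SNORA2 (ENSG00000206647) had the largest H/ACA rise, 0.84 (SE 0.15), at control levels of 0.287 to 2.04 FPKM and BETi-211 levels of 1.67 to 3.29 FPKM. Only its BETi-211 groups had a mean above 1.63 FPKM, the lowest value of the highest group mean among members. It may thus have passed the table's filter through the groups where it is high, so its rise and rank carry little weight.

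Since the compounds share their controls, the direct test of one against the other was used to compare them. In the direct test of BETd-246 against BETi-211, at their different doses, 24, 25 and 30 C/D genes were lower and 2 higher, the U3 genes again (background 22.3%, 23.9% and 23.2% lower and 24.2%, 17.8% and 20.1% higher, or 46.5%, 41.7% and 43.3% in either direction). For H/ACA genes 12, 13 and 18 were lower and 0 higher. The C/D shares called lower, 30%, 31.2% and 37.5%, were above the background, and the H/ACA shares, 15.4%, 16.7% and 23.1%, below or near it. Without the 3 MDA-MB-157 libraries, 16 C/D and 7 H/ACA genes were lower in that line (20% and 8.97%, against 16.8% of all genes).

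Members of 1 host share a primary transcript, so their changes were set beside that of the host. In the SNHG1 gene, with 6 C/D members in the table, SNORD22 (ENSG00000278527), SNORD26, SNORD27, SNORD28 and SNORD30 fell with BETd-246 by -1.34, -0.69, -1.35, -1.40 and -1.01. SNORD22 (ENSG00000277194), the last of them in the direction of transcription, did not (0.06, SE 0.10, adjusted p 0.636). The host changed by -0.18 (SE 0.04, adjusted p 0.00147). With BETi-211 all 6 rose, by 0.41 to 1.17, and the host rose by 0.45.

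The copies of SNORD22 show the contrast within 1 transcript. In MDA-MB-468, SNORD22 (ENSG00000278527) was at 21.8, 24.5, 22.1 and 30.4 FPKM in controls, at 42.7 and 40.6 FPKM with BETi-211 and at 5.09 and 4.32 FPKM with BETd-246. SNORD22 (ENSG00000277194) was at 17.3, 19.6, 13.6 and 22.3 FPKM in controls, at 44.0 and 42.2 FPKM with BETi-211 and at 14.6 and 13.3 FPKM with BETd-246. Both thus lay above all controls with BETi-211. With BETd-246 the log2 change of the first was -2.16 (SE 0.11, adjusted p 9.46e-11). The second had a change of -0.34 that was not called (adjusted p 0.121).

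**Figure D5:**
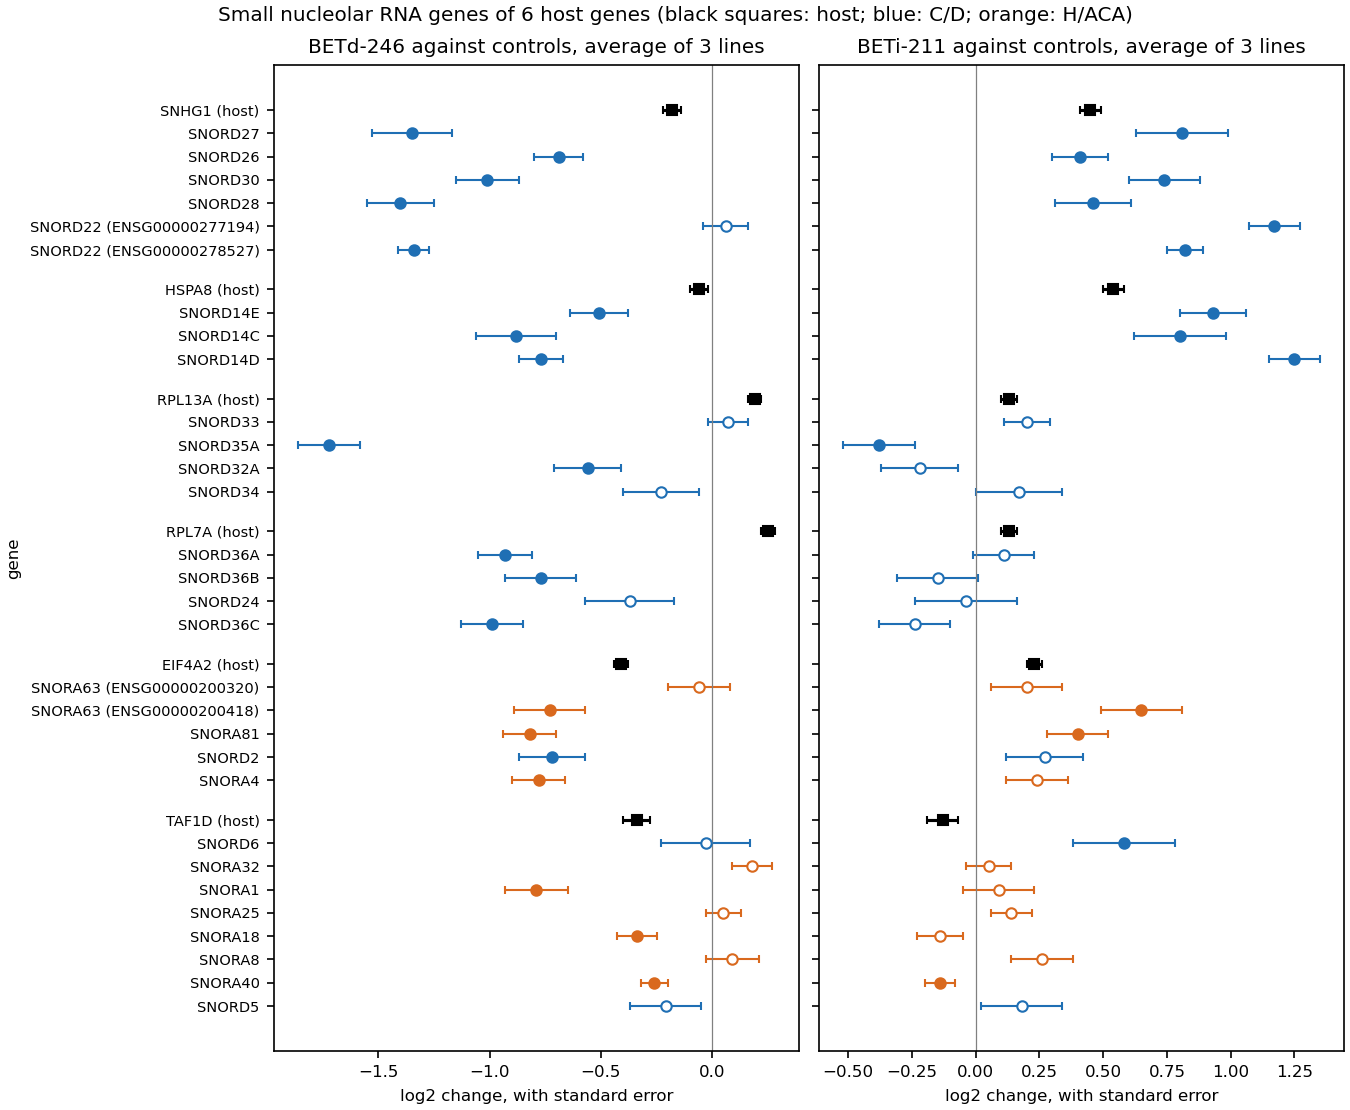
Log2 change on the average of the 3 lines, with its standard error, of 6 host genes (black squares) and their members (blue C/D, orange H/ACA, filled where called), for BETd-246 (left) and BETi-211 (right). Members of SNHG1 and HSPA8 lie left of 0 with BETd-246, apart from 1 SNORD22 copy, and right of 0 with BETi-211, while RPL13A and RPL7A lie right of 0 and most of their members left with BETd-246.

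The 3 SNORD14 genes of HSPA8 fell by 0.51 to 0.88 with BETd-246, while the host had a change of -0.06 (SE 0.04, adjusted p 0.136). With BETi-211 they rose by 0.80 to 1.25 and HSPA8 by 0.54. In RPL13A the members differed: SNORD35A changed by -1.72 and SNORD32A by -0.56, both called, while SNORD33 (0.07, adjusted p 0.49) and SNORD34 (-0.23, adjusted p 0.241) were not. RPL13A itself rose by 0.19 (SE 0.03). In RPL7A, SNORD36A, SNORD36B and SNORD36C fell by 0.93, 0.77 and 0.99, and the host rose by 0.25 (SE 0.03). SNORD24, also in RPL7A, had a change of -0.37 that was not called. SNORD34 and SNORD24 had medians of only 3.0 and 5.5 fragments in the control libraries, so their values carry a large counting error.

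In EIF4A2, SNORA81, SNORA4, SNORA63 (ENSG00000200418) and the C/D gene SNORD2 fell by 0.82, 0.78, 0.73 and 0.72 with BETd-246, and the host fell by 0.41 (SE 0.03). The abundant SNORA63 (ENSG00000200320) did not follow, as given above. In TAF1D, with 8 members, SNORA1, SNORA18 and SNORA40 were called lower, at -0.79, -0.34 and -0.26, and the other 5 ranged from -0.21 to 0.18. In the 5 members of NOP56, which encodes a C/D core protein, only SNORD86 was called (-0.51), and NOP56 fell by 0.23. None of the 3 members of RPS12 was called lower, and that host rose by 0.25.

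Ribosomal protein hosts were called higher after BETd-246. All 17 ribosomal protein hosts of C/D members were called higher (median 0.24), while 16 of their 30 members were called lower and 0 higher (median -0.43). Of all genes 27.9% were called higher and 42.2% lower. With quantile normalization 10 of the 17 hosts were higher and 0 lower, with a median of 0.05, and 11 of 30 members were lower and 1 higher. There 49.6% of all genes were called higher and 27.4% lower, so the host share called higher was closer to that of all genes. The 28 other hosts of C/D members were lower in 14 and higher in 7 cases (median -0.07), with 28 of 46 members lower (median -0.54). In the H/ACA class 4 of 15 members (under the background of 42.2%) in 12 ribosomal protein hosts, all 12 called higher, were lower, and 17 of 60 members of 43 other hosts (15 higher and 14 lower).

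After BETi-211 the members that rose were mostly outside ribosomal protein genes, which also hold fewer of the members. Of the 46 C/D members of other hosts, 15 were called higher and 3 lower, and in 13 of the 15 the host was called higher too. Of these 15, 6 lie in SNHG1 and 3 in HSPA8. Members of 1 host are not separate cases, here and in the H/ACA class below. Those in SNHG1 all overlap an exon of another transcript of the host, so host and member values can share fragments. Of the 30 in ribosomal protein hosts, 1 was called higher and 3 lower, while 15 of the 17 hosts were called higher, a direction that held for 3 hosts (1 lower) with quantile normalization and 8 with column-total scaling. For H/ACA genes, 9 of 60 members of other hosts were called higher, each with its host, and 1 lower, and of the 15 in ribosomal protein hosts 1 was higher and 3 lower. Of all genes 26.6% were called higher and 40.6% lower. The share called higher was near that of all genes for C/D members of other hosts and below it for the remaining sets. The difference between the kinds of host was not tested.

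Genes that build and process snoRNA particles changed in both directions after BETd-246 on the average of the lines. Of the C/D protein genes, FBL (0.12) and SNU13 (0.16) were higher and NOP56 (-0.23) and NOP58 (-0.09) lower. Of the H/ACA protein genes, NHP2 (0.29) and NOP10 (0.17) were higher, GAR1 (-0.24) lower and DKC1 (-0.03, adjusted p 0.132) not called. The directions of these small changes varied with the scaling: 0 to 3 of the C/D protein genes and 2 to 3 of the H/ACA protein genes were higher.

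Of 13 assembly and transport genes, 8 fell and 4 rose with BETd-246, against a background of 42.2% lower and 27.9% higher. The largest falls were those of COIL, the scaffold of Cajal bodies (-1.40, SE 0.02), and TGS1, which modifies the cap of U3 and other RNAs (-0.97, SE 0.02). Over the other scalings 1 to 5 of the 13 rose and 6 to 9 fell. NUFIP1 (-0.66), PHAX (-0.55) and NAF1 (-0.48), which act in particle assembly or nuclear transport, fell as well. Of 14 processing and decay genes, 5 fell and 4 rose, so falls were under the same background and rises near it. Over the other scalings 4 to 9 fell and 0 to 10 rose. The genes named from both lists are among those that fell, and the 4 that rose in each are not named. DBR1, the enzyme that opens intron lariats, fell by 1.20 (SE 0.04, adjusted p 2.05e-14), TOE1, a deadenylase of small RNAs, by 0.94 and PAPD5, which adds adenosines to RNA ends, by 0.41.

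With BETi-211, 6 of the 13 assembly genes fell and 4 rose, and 9 of the 14 processing genes fell and 3 rose (background 40.6% lower, 26.6% higher). Over the other scalings 6 to 8 of the assembly genes fell and 0 to 6 rose. Of the processing genes 6 to 11 then fell and 2 to 4 rose. The 14 Cajal body RNA genes (SCARNA) are relatives of both classes that guide modification of spliceosomal RNAs. With BETd-246, 7 of them rose and 1, SCARNA2 (-0.18), fell, with a median of 0.23, where 27.9% of all genes were called higher. Under each other scaling 7 or 8 rose. With quantile normalization it was 7 of 14, near the 49.6% of all genes called higher there. SCARNA18 (0.60, SE 0.11) and SCARNA17 (0.51, SE 0.07) had the largest changes. With BETi-211 1 of the 14 was called higher, and 3, 6 and 0 were with quantile, median-of-ratios and column-total scaling.

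Few members were called between the controls. Thalidomide against DMSO left 0 members called in MDA-MB-468 or MDA-MB-231 by limma (0.0% of all genes in both), with 3 and 7 members at an unadjusted p below 0.05. In MDA-MB-157, 1 member was called (0.184% of all genes, 0.0709% lower and 0.113% higher), and 23 had an unadjusted p below 0.05. This was SNORA63 (ENSG00000201229), at 5.0 and 4.21 FPKM with DMSO and 1.77 and 1.96 FPKM with thalidomide, a change of -0.97 (SE 0.17, adjusted p 0.0411). In that line 66 of 78 H/ACA changes were below 0, with a median of -0.28, which was -0.12 without the 3 libraries named above, 1 of them a DMSO library.

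The change after BETd-246 differed between lines for few members. Between MDA-MB-157 and MDA-MB-231, 6 members differed, 5 of them with the higher change in the former (background 11.2%, 6.23% higher and 5.01% lower). Between MDA-MB-157 and MDA-MB-468, 7 differed, 5 in that direction (background 13.1%, 9.06% higher and 4.02% lower). For MDA-MB-231 against MDA-MB-468, 6 differed, 3 each way (background 13.3%, 8.45% higher and 4.82% lower), so all shares were under the background. The directions for SNORD3B-2 in the first pairs, and for SNORD3B-1 in the last, turned with a pseudocount of 0.1. In the last pair SNORA63 (ENSG00000201229) was listed at 0 in the MDA-MB-468 controls, so it could not fall there.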

How the data were processed

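RNA was sequenced from 24 libraries of 3 lines and 4 treatments, 2 per group. The authors deposited 1 table of 14114 genes with FPKM values. The table does not name the unit, which was inferred from the values. The submitters' processing notes list Bowtie 0.12.8, GRCh38.p5 and bcl2fastq 2.17.1.14. What computed the FPKM, with which annotation and filter, is not given in the sources used here. For 153 members with 1 transcript, all 3593 values above 0 were whole fragments (tolerance 0.05) when multiplied by depth and by length less 24 bases, which gave a depth of 43500000 to 65600000 fragments. A count test was not run, since the depth is inferred.

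The members, gene lists and tests were chosen with earlier results of these data known. limma 3.58.1 in R 4.3.3 was fitted to log2(FPKM + 1) of all genes and libraries, with 1 coefficient per group, a variance trend, 12 residual and 3.32 prior degrees of freedom, two-sided tests and adjustment over all genes of a contrast (20 contrasts). The control value for a compound was the mean of the DMSO and thalidomide groups of the line. The fit was tested on simulated data. Columns were matched to samples by name.

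Positions, hosts and sequences come from GENCODE 29. The host and sequence of 1 member are not reported here. A host is the shortest gene of the table that holds the member on its strand and is no small RNA. The members named are SNORD3A, the 5 most abundant of each class, the 5 largest called rises and falls of a class for BETd-246 and 2 for BETi-211 on the average, the largest called differences between lines and between compounds, and members called for thalidomide; members of host groups and of short counts were chosen after their values were seen. Alternatives were pseudocounts of 0.1 and 0.5, a filter at 5 FPKM, 3 other scalings, fits without trend or with robust variance, single controls, a replicate block, fits on the libraries of a contrast, and each library left out. Leaving out 3 MDA-MB-157 libraries together and a crossed block were added after seeing the data. p-values measure the spread between 2 libraries per group.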

Additional observations from a re-analysis of the deposited data

Results flagged for a closer look

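The change after BETd-246 differed between lines for a few members, by a test of the difference itself (limma, adjusted over all genes). The values are the log2 change in the first line minus that in the second.

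Between MDA-MB-157 and MDA-MB-231, 6 members differed, where 11.2% of all genes did. SNORD32A (1.63, SE 0.37, adjusted p 0.00822) fell in MDA-MB-231 (18.7, 13.2, 11.3 and 18.5 FPKM in controls, 5.28 and 5.72 FPKM with BETd-246), while in MDA-MB-157 it was at 2.35 to 4.89 FPKM in controls and at 4.67 and 3.51 FPKM with BETd-246. The others were SNORA71B (1.16), SNORD46 (1.14), SNORA28 (0.89), SNORA63 (ENSG00000201229) (0.76) and SNORD3B-2 (-1.10, adjusted p 0.000273). The last rose in both lines, from a control mean of 0.305 FPKM in MDA-MB-157 and 25.5 FPKM in MDA-MB-231. The sign of its difference depends on the pseudocount: it was 0.16 (adjusted p 0.795) with 0.1 FPKM, and the ratio of mean FPKM was 8.34 in MDA-MB-157 and 6.0 in MDA-MB-231. Without the 3 MDA-MB-157 libraries that stood apart 3 members differed.

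Between MDA-MB-157 and MDA-MB-468, 7 members differed (13.1% of all genes). They were SNORD65 (1.32), SNORD30 (1.29), SNORD22 (ENSG00000278527) (1.26, SE 0.16, adjusted p 4.44e-05), SNORA66 (1.18), SNORD46 (1.0), SNORD3B-2 (-0.62) and SNORD3B-1 (-1.04). For SNORD3B-2 the difference was 0.58 (adjusted p 0.201) with a pseudocount of 0.1. For SNORD3B-1 it was -1.11 (adjusted p 0.0168). Without the 3 libraries, 5 C/D members and 0 H/ACA members differed.

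Between MDA-MB-231 and MDA-MB-468, 6 members differed (13.3% of all genes). They were SNORD22 (ENSG00000278527) (1.19, adjusted p 8.38e-05), SNORD65 (1.07), SNORA5C (0.32), SNORD3B-1 (-0.66), SNORA63 (ENSG00000201229) (-0.88) and SNORD93 (-1.34). This SNORA63 copy was listed at 0 in the control and BETd-246 libraries of MDA-MB-468, so it could not fall there. In MDA-MB-231 it was at 0.698 to 1.23 FPKM in controls and at 0 and 0.151 FPKM with BETd-246. The difference of SNORD3B-1 was 1.09 (adjusted p 0.0181) with a pseudocount of 0.1, the opposite direction, and its ratio of mean FPKM was 18.5 in MDA-MB-231, from a control mean of 0.145 FPKM, and 5.47 in MDA-MB-468. SNORD93 was at 3.05, 2.89, 4.52 and 4.29 FPKM in MDA-MB-231 controls and at 0.396 and 0.981 FPKM with BETd-246, and at 0.637 to 1.52 FPKM in MDA-MB-468 controls and 1.06 and 0.459 FPKM with BETd-246. The share of members that differed was below the background in each pair.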

How the results depend on the processing

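Of 227 counts of called members under alternatives that left out no single library, 216 lay within 1.5 times the reported count. With a filter at 5 FPKM, 42 members were called for BETd-246 on the average, against 68, of 99 members and 11482 genes left. For thalidomide in MDA-MB-157 the 1 call became 0 with a pseudocount of 0.1 or 0.5, that filter, the replicate block or the libraries of the contrast only, 2 with quantile normalization and 3 without the 3 libraries of high H/ACA sum. Without those, 25 members differed between BETd-246 and BETi-211 in MDA-MB-157 (38 with them), and 3 in the BETd-246 effect between MDA-MB-157 and MDA-MB-231 (6 with them). The cause was not tested.

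With single libraries left out, the lone library of a group was assumed to vary like the other groups, and counts for BETd-246 ranged from 25 to 32, 24 to 45 and 32 to 58 in the lines and from 67 to 72 on the average. Without its BETd-246 replicate 2, MDA-MB-231 had 24 (42 with it), and MDA-MB-468 had 32 (49). For BETi-211 they ranged from 16 to 32, 19 to 37, 15 to 22 and 36 to 58; without DMSO replicate 1 of MDA-MB-157 that line had 32 (21). For BETd-246 against BETi-211 they ranged from 31 to 50, 28 to 31 and 35 to 40. For thalidomide they were 0 to 2, 0 to 7 (7 without thalidomide replicate 2) and 0 to 0. Between lines they were 95 to 105, 95 to 100 and 70 to 77. For differences of the BETd-246 effect they were 2 to 7, 3 to 11 and 1 to 11. The lowest came without BETd-246 replicate 1 of MDA-MB-157 (2, and 3 without DMSO replicate 1 of MDA-MB-231), without BETd-246 replicate 2 of MDA-MB-157 or MDA-MB-468 (3, the latter also for MDA-MB-231 against MDA-MB-468) and without BETd-246 replicate 1 of MDA-MB-231 (1). The counts of 11 came without thalidomide replicate 1 of MDA-MB-468, DMSO replicate 2 of MDA-MB-157 or thalidomide replicate 2 of MDA-MB-231.

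Same-numbered libraries of a line correlated in their deviations by -0.207 to 0.335, above 0.1 in 6 of 18 pairs of groups. The labels give no shared source, so the numbers were not treated as pairs. With the replicate block 74 members were called for BETd-246 on the average (68 without) and 47 for BETi-211 (39). The crossed block in MDA-MB-157 (r -0.114) gave 0 calls for thalidomide. Of 6908 values of named members under alternatives, over called changes and line differences, 63 became called, 429 were no longer called and 92, called under neither setting, changed sign. The sign of a called value turned in 3, with a pseudocount of 0.1. SNORD3B-2 then differed by 0.16 between MDA-MB-157 and MDA-MB-231 and by 0.58 between the first and MDA-MB-468. SNORD3B-1 differed by 1.09 between MDA-MB-231 and MDA-MB-468.

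Depth limits low members, where 1 FPKM is 3.12 to 6.13 fragments.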
